A study of Mus musculus with 18 samples.

Results

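The accessibility of chromatin in resting macrophages given (+)-JQ1 alone was measured in 3 ATAC-seq libraries of bone marrow-derived macrophages (BMDMs) and compared with 3 libraries of unstimulated, untreated BMDMs. These 6 libraries, of 18 in the series, were chosen by their labels and not by any measured value. All BMDMs came from 3 Il10-/- mice of the C57BL/6J strain, males aged 12 weeks, so that the controls lacked the anti-inflammatory cytokine IL-10 as well. The labels do not tie single libraries to mice. Bone marrow was grown into macrophages over 6 days. Unstimulated BMDMs were kept without treatment for 16 h, and (+)-JQ1 BMDMs received 500 nM (+)-JQ1 for 12 h and then no LPS for the last 4 h. For comparison, IL-10 BMDMs received 10 ng/mL IL-10 in place of (+)-JQ1, LPS BMDMs received 50 ng/mL LPS for 4 h, and LPS + (+)-JQ1 BMDMs received the same 500 nM (+)-JQ1 for 12 h before LPS, with 3 libraries each. The remaining 3 libraries, of LPS + IL-10 BMDMs given 10 ng/mL IL-10 for 12 h before LPS, entered the joint fit and the ranges over all libraries. The controls are labelled as untreated, so an effect of the solvent of (+)-JQ1 cannot be told apart from that of the compound.

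BET proteins, among them BRD2 and the testis protein BRDT, read acetylated lysines on histones through their bromodomains and bring in the kinase complex P-TEFb, which releases paused RNA polymerase. (+)-JQ1 occupies the bromodomains and displaces BET proteins from chromatin. In macrophages, enhancers are opened by lineage factors such as PU.1 and C/EBP proteins, and BET inhibitors are known for blunting inflammatory gene induction by LPS. In ATAC-seq a transposase cuts accessible DNA, so that the number of reads counted in a region (a peak) measures how open it is.

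The sequences of the named regions with the largest changes are shown first, because a motif found in them returns in the comparison. Distal peaks (those not classed as promoter by the authors) are named by the gene they lie in or, failing that, by the nearest TSS, and no target gene was measured. Each line gives the forward strand of mm9, and capitals mark matches to the motif named for that peak. Where a peak shown here held a C/EBP match, that match is the one displayed. Some of the peaks also held matches to other motifs, which are not marked. Among distal peaks, the largest rises were next to Magi3 (chr3:104083396-104083595 shown) and in Ccdc152, beside Sepp1 (chr15:3232047-3232246). The largest falls were near Entpd1 (chr19:40818793-40818992) and in a coding exon of Gtf2ird2 (chr5:134692933-134693132). Capitals mark a C/EBP match (TTGCNNAA) in both rises, E-box matches (CACGTG) at Entpd1 and an antioxidant response element (ARE) match (TGACNNNGC) at Gtf2ird2.
Magi3 distal peak, raised: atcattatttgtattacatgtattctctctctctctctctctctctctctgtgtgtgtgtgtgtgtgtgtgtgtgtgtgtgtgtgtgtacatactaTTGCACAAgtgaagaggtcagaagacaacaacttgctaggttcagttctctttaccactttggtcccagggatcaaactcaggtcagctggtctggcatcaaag
Ccdc152 distal peak, raised: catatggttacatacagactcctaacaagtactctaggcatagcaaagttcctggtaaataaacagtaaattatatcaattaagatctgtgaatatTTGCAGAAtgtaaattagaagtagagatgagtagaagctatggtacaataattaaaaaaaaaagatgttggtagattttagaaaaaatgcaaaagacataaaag
Entpd1 distal peak, lowered: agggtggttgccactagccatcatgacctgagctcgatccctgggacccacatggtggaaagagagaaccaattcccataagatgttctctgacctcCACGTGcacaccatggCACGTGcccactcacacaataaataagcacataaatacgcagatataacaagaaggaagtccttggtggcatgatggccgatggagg
Gtf2ird2 distal peak, lowered: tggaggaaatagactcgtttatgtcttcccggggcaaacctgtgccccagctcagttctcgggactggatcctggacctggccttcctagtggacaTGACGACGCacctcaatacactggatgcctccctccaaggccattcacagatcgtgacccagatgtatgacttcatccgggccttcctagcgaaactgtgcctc

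Matches to the C/EBP motif were also seen in raised peaks in introns of Rnf144a (chr12:27083502-27083561) and Acsl4 (chrX:138795999-138796058), chosen after their values were seen. The same holds for raised promoter-class peaks at Dlst (chr12:86470795-86470854), Zeb2 (chr2:44966779-44966838) and Gm17511 (chr7:134431570-134431629). They are shown so that the matched bases can be compared on both strands.
Rnf144a: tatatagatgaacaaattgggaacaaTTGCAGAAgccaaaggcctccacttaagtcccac
Acsl4: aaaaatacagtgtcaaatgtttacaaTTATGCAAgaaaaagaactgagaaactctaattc
Dlst: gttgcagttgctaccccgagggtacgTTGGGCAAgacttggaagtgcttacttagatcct
Zeb2: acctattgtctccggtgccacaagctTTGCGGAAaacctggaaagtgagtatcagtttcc
Gm17511: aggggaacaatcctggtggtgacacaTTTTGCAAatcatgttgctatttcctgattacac

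Other motifs were found in the other promoter-class peaks with a match. The raised Cd14 peak held an AP-1 match (TGANTCA) and the raised Rcbtb2 peak an NRF1 match (GCGCA followed by TGCGC), and their sequences are not shown. Fbxw2 (chr2:34683445-34683504, raised) and Hoxc8 (chr15:102821633-102821692, lowered) held an IRF match (GAAA, any 2 bases, GAAA). Among the other lowered peaks, Clec4a2 (chr6:123100037-123100096) held a RUNX match (TGTGGT), Entpd1 (chr19:40821886-40821945) 2 ARE matches, A630001G21Rik (chr1:87676203-87676262) a PU.1 match (GAGGAAGT) and Hormad1 (chr3:95362064-95362123) a MAF match (TGCTGAC).
Fbxw2, raised: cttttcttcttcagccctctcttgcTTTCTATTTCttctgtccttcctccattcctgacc
Clec4a2, lowered: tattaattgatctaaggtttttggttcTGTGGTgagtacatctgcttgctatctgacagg
Entpd1 promoter-class peak, lowered: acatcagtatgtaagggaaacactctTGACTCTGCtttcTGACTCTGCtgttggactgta
A630001G21Rik, lowered: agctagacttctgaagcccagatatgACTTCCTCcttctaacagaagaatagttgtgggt
Hormad1, lowered: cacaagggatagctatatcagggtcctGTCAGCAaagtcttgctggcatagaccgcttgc
Hoxc8, lowered: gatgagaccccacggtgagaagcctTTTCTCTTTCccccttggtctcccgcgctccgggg

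The union of the peaks called in each library held 194284 regions, of which 36666 promoter and 157564 distal peaks passed a filter on low counts and were tested. Total counts in peaks were 12020526, 15808647 and 17586208 in unstimulated libraries and 17388944, 15928211 and 20206975 with (+)-JQ1, within the range of 12020526 to 25908198 over all 18. The libraries of the controls stood apart from each other. In unstimulated BMDMs the log2 of distal over promoter counts, taken inside each library, was 0.54, 0.42 and 0.26 in replicates 1, 2 and 3, whereas it was 0.09, -0.06 and 0.07 with (+)-JQ1, and the groups did not overlap. The ratio, which needs no scaling between libraries, fell by 0.37 on average, from 0.41 ± 0.14 to 0.03 ± 0.08 (SD, n = 3 each). An exact permutation test, two-sided, gave p = 0.1, which is the least that 3 against 3 can give, and all 3 libraries with (+)-JQ1 lay below all 3 controls. In the 12 other libraries it lay between 0.12 and 0.44. Counts of changed peaks moved with how the libraries were scaled, and individual loci whose call held under 6 different scalings are therefore given most room.

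All 8 macrophage marker genes (Csf1r, Emr1, Itgam, Cd68, Lyz2, Fcgr1, Mertk and Sfpi1, which encodes PU.1) had a promoter peak. Their summed promoter counts were 3000 to 4278 in unstimulated libraries and 5091 to 5300 with (+)-JQ1. None of Cd3d, Cd3e, Cd3g, Cd4 and Cd8a had a promoter peak, nor had Ncr1 of the NK cell list, Hba-a1 and Hbb-b1 of the erythroid list, or Cpa3, Fcer1a and Mcpt8 of the mast cell and basophil list. Ly6g, Ngp and S100a9 of the neutrophil list and Col1a2, Col3a1 and Dcn of the fibroblast list had none either. Other members of these lists did have a promoter peak, 2 of 7 T cell, 5 of 6 B cell, 5 of 8 neutrophil and 6 of 6 dendritic cell genes. The same was true of 4 of 6 erythroid, 2 of 5 mast cell and basophil, 3 of 4 NK cell and 2 of 5 fibroblast genes. Summed over all promoter peaks of a list, counts in unstimulated and (+)-JQ1 libraries were 343 to 497 and 460 to 530 for T cells, 380 to 448 and 355 to 425 for B cells, 663 to 955 and 921 to 965 for neutrophils, and 669 to 841 and 895 to 1128 for dendritic cells. The corresponding ranges were 455 to 657 and 466 to 511 for erythroid cells, 577 to 663 and 524 to 571 for mast cells and basophils, 450 to 511 and 427 to 480 for NK cells, and 874 to 953 and 884 to 941 for fibroblasts. No promoter peak of these other lists passed the test with a change over 0.5 on the log2 scale, except 1 raised peak in the neutrophil list, that of S100a8, and 1 raised peak in the dendritic cell list. Distal peaks within 25 kb of a TSS moved more in some of these lists. At the same threshold, which 4.34% of all distal peaks passed as rises, 4 of 44 rose for T cells, 5 of 56 for dendritic cells and 2 of 27 for NK cells, none of them under every scaling. Their summed distal counts were higher with (+)-JQ1 without overlap, at 3035 to 3831 and then 4103 to 4843 for T cells, 3387 to 3944 and then 4257 to 4387 for dendritic cells, and 2155 to 2783 and then 3012 to 3435 for NK cells. For mast cells and basophils the sums were lower with (+)-JQ1, 440 to 514 and then 409 to 428, and for B cells, neutrophils, erythroid cells and fibroblasts the groups overlapped. Macrophage markers had 25 of 131 distal peaks raised and 7 lowered, 5 and 4 of them under every scaling, with sums of 12435 to 15475 and 17711 to 17887. The part of other cell types in the results was not tested. In bulk libraries a change in the share of a cell type cannot be told apart from a change within cells.

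To ask which regions (+)-JQ1 opened or closed in resting BMDMs, peaks were counted that passed an FDR of 0.05 and changed by more than 1 on the log2 scale. With (+)-JQ1 alone, 376 distal peaks rose (0.239% of those tested) and 3183 fell (2.02%), while 153 promoter peaks rose (0.417%) and 300 fell (0.818%). P-values rest on the spread between libraries within groups, estimated over all 18 libraries of the 6 groups. They do not rest on the 2 compared groups alone, and the labels do not tie single libraries to mice. Counts called with the same sign under all 6 scalings (TMM, size factors, total counts, loess by peak strength, GC bins, promoter and distal tables scaled apart) were far fewer. They comprised 61 distal peaks that rose (0.0387%) and 536 that fell (0.34%), with 3 promoter peaks that rose (0.00818%) and 65 that fell (0.177%). Scaled by total counts, 63 distal peaks rose and 12407 fell, whereas 573 rose and 651 fell with loess offsets. Without unstimulated replicate 1, 294 distal peaks rose and 1352 fell and 36 promoter peaks rose and 135 fell. Without unstimulated replicate 3 these numbers were 1454, 5665, 1710 and 518.

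**Figure D1:**
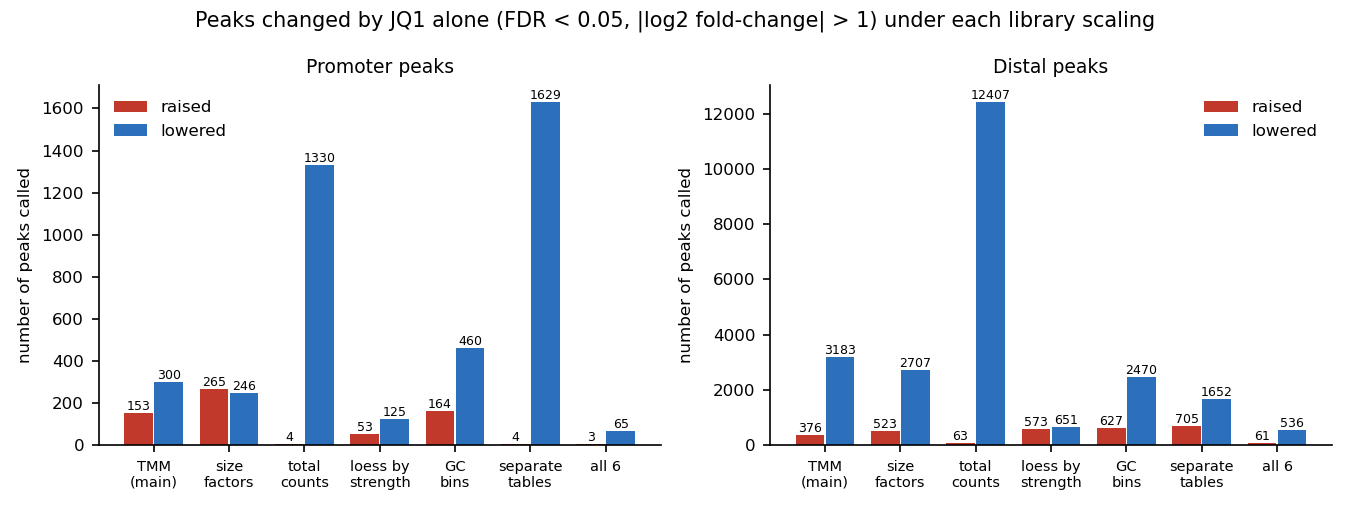
Bars give the number of promoter peaks (left) and distal peaks (right) raised or lowered by (+)-JQ1 alone (FDR below 0.05, change over 1 on the log2 scale) under each of 6 library scalings and under all 6. Distal falls range from 651 with loess offsets to 12407 with total counts, and 61 rises and 536 falls were called under all 6.

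The general shift went with the strength of the peak. With all tested peaks split by strength into 5 equal bins, the median log2 fold-change was -0.30, -0.27, -0.16, -0.04 and 0.34 from the weakest to the strongest bin, and with loess offsets, which remove such a trend by design, it lay between -0.04 and 0.02. Raised promoter peaks were strong CpG-rich promoters, with a median of 696 normalized counts and 30 CpG in the middle 500 bp, against 86.2 counts and 8 CpG over all promoter peaks. Their matches to the SP/KLF motif (GGGGCGGGG) were more frequent, 23.5% against 7.90%. Only 3 of these 153 held under all scalings, so the rise of CpG-rich promoters as a class was not independent of the scaling. Lowered distal peaks were weak, and 2.92% of the 3183 had a mean of at least 50 normalized counts over the 6 libraries, compared with 57.7% of the 376 raised ones and 30.9% of all distal peaks. Among peaks over that mean, rises were narrow and falls were broad. Raised distal peaks had a median width of 1038 bp and lowered ones of 2643 bp, against 1819 bp for all distal peaks of that strength.

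By rule, the 6 largest rises and 6 largest falls were taken for each class of peak, 24 peaks in all, among those with an FDR below 0.05, a mean of at least 50 and an equal sign of change in each of the 3 pairs of libraries that share a replicate number, with at most 1 peak per 50 kb. All 24 had libraries that did not overlap between the groups (13.3% of all tested peaks did not overlap and were higher with (+)-JQ1, and 12.3% were lower), and all 24 were called under all 6 scalings at a |log2 fold-change| above 0.5. These peaks were selected for their change in this contrast, so the counts describe the selection. The largest edgeR adjusted p among the 24 was 1.66e-04, that of Hoxc8, and the call was kept in every fit that left out 1 library for 23 of them. Uniqueness of sequence was high in most, as a median of 95.5% of the 32-base words of a named peak occurred once in mm9, but it was 52.9% at Fam162b.

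**Figure D2:**
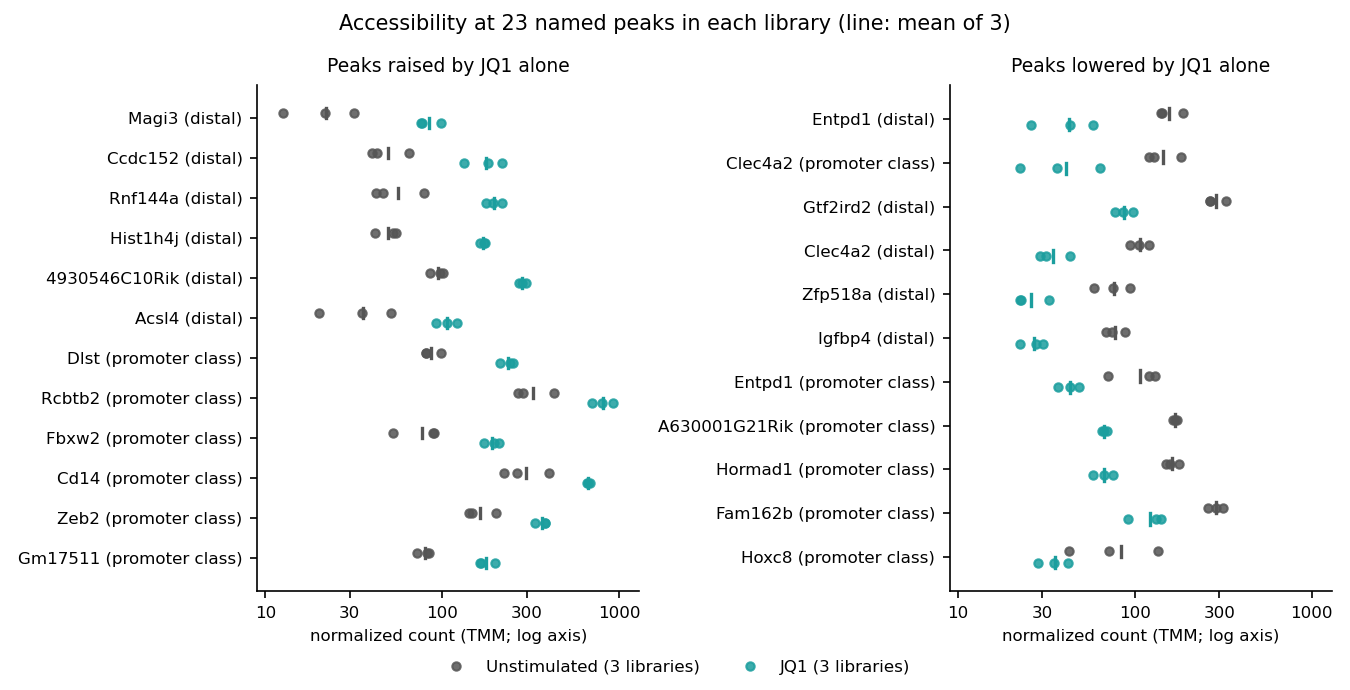
Each point is the normalized count (TMM, log axis) of 1 library at 23 of the named peaks, grey for unstimulated and teal for (+)-JQ1, with a vertical line at the mean of 3, for peaks raised (left) and lowered (right) by (+)-JQ1 alone. The groups are apart at all 23 peaks, most narrowly at Hoxc8, where the lowest unstimulated library has 42.2 and the highest (+)-JQ1 library 42.1.

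The largest rise was in an intergenic peak 59.3 kb from the TSS of Magi3, which encodes a scaffold protein of cell junctions (chr3:104083263-104083968). Normalized counts there were 12.6, 21.7 and 31.9 in unstimulated libraries and 77.3, 98.7 and 75.6 with (+)-JQ1. Counts were low in every control and higher in every treated library, a log2 fold-change of 1.89 ± 0.29 (SE, edgeR adjusted p = 4.93e-07).

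Next was a cluster of peaks within Ccdc152, close to Sepp1, the gene of the selenium carrier selenoprotein P. At the named peak (chr15:3231712-3232222, 9.88 kb from the Sepp1 TSS) counts were 42.7, 40.3 and 64.9 without treatment and 133, 217 and 182 with (+)-JQ1, a log2 fold-change of 1.83 ± 0.23 (SE, edgeR adjusted p = 8.35e-09). Of the 21 tested peaks in this window of 100 kb, 4 rose, the most of any window, and none fell at that threshold. Under every scaling 3 of the 4 rose by over 1 and all 4 by over 0.5. All 4 lay in introns of Ccdc152. The strongest of them, at chr15:3232292-3233828, went from 138, 152 and 218 counts to 430, 641 and 568 (log2 fold-change 1.68 ± 0.16, SE, edgeR adjusted p = 9.26e-13). The other 2 rose by 1.22 and 1.39 on the log2 scale.

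In an intron of Rnf144a, the gene of an E3 ubiquitin ligase (chr12:27083111-27083936), counts were 46.5, 42.3 and 79.3 without and 177, 195 and 219 with (+)-JQ1. The log2 fold-change was 1.80 ± 0.20 (SE, edgeR adjusted p = 8.43e-11), with every treated library above every control. An intronic peak of Acsl4, which encodes an enzyme that activates polyunsaturated fatty acids (chrX:138795549-138796692), had 20.1, 35.1 and 51.5 counts without and 91.9, 107 and 122 with (+)-JQ1 (log2 fold-change 1.56 ± 0.25, SE, edgeR adjusted p = 1.46e-06). Here the controls differed from each other by more than the treated libraries did.

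Among the replication-dependent histone genes on chromosome 13, a peak near Hist1h4j (chr13:21831732-21834702) had 41.5, 52.6 and 54.6 counts in unstimulated libraries and 173, 163 and 175 with (+)-JQ1. It rose by 1.77 ± 0.21 on the log2 scale (SE, edgeR adjusted p = 1.23e-09) with little spread in either group. Of the 32 tested peaks of this window 3 rose, the second most of any window, by 1.14, 1.77 and 1.45 on the log2 scale. Under every scaling 2 of them rose by over 1 and all 3 by over 0.5. All 3 lay close to Hist1h4j and Hist1h4k, and no peak of the window fell at this threshold. The remaining distal rise of the rule lay 60.6 kb from the TSS of 4930546C10Rik, with 96.8, 85.7 and 101 counts without and 281, 296 and 271 with (+)-JQ1 (log2 fold-change 1.58 ± 0.16, SE).

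The largest fall was in an intergenic peak near Entpd1, the gene of CD39, which hydrolyses extracellular ATP. At chr19:40818003-40820270, 18.6 kb from its TSS, counts were 140, 142 and 186 in unstimulated libraries and 25.8, 57.9 and 43.2 with (+)-JQ1, a log2 fold-change of -1.90 ± 0.23 (SE, edgeR adjusted p = 7.06e-09). The neighbouring peak at chr19:40820801-40823486, classed as promoter, fell by 1.32 ± 0.24 on the log2 scale (SE), from 70.4, 130 and 119 counts to 48.2, 36.8 and 43.2. Both were lower in all 3 treated libraries than in any control.

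At Gtf2ird2, a gene of the TFII-I transcription factor family, a peak in a coding exon (chr5:134691296-134694753) had 267, 265 and 327 counts without and 97.5, 85.5 and 77.6 with (+)-JQ1. The log2 fold-change was -1.72 ± 0.16 (SE, edgeR adjusted p = 6.31e-13), the smallest p of the named falls, and the counts of the groups were far apart.

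Clec4a2, the gene of an inhibitory C-type lectin receptor of myeloid cells, was the nearest gene to 2 named falls. A distal peak (chr6:123093841-123097580) went from 106, 120 and 93.7 to 31.4, 28.9 and 43.2 counts, a log2 fold-change of -1.60 ± 0.21 (SE). A promoter-class peak beside it (chr6:123098230-123101773) went from 128, 121 and 182 to 63.9, 22.4 and 36.3 counts, a log2 fold-change of -1.80 ± 0.21 (SE). Near Zfp518a (chr19:41001391-41003364) counts fell from 75.4, 93.9 and 58.7 to 32.5, 22.4 and 22.6 (log2 fold-change -1.55 ± 0.26, SE). Near Igfbp4, which encodes a binding protein of insulin-like growth factors (chr11:98915222-98917410), counts fell from 74.2, 87.7 and 69.0 to 22.4, 30.3 and 27.5 (log2 fold-change -1.53 ± 0.26, SE). At each of these 4 peaks all treated libraries lay below all controls.

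Promoter-class peaks changed by less. Of the 12 named, 5 (Dlst, Gm17511, Clec4a2, Entpd1 and Fam162b) had no TSS of the GENCODE annotation used here within 1000 bp upstream or 100 bp downstream. A peak in Dlst, which encodes a subunit of the 2-oxoglutarate dehydrogenase complex (chr12:86470412-86471198), rose from 80.5, 80.5 and 97.8 to 243, 250 and 212 counts (log2 fold-change 1.44 ± 0.16, SE). It was 1 of 3 promoter-class peaks raised by over 1 under every scaling. The promoter of Cd14, the co-receptor for LPS (chr18:36885824-36886751), had 224, 265 and 400 counts without and 659, 686 and 668 with (+)-JQ1 (log2 fold-change 1.17 ± 0.15, SE, edgeR adjusted p = 1.14e-08). The treated libraries were alike while the controls ranged widely.

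At the promoter of Zeb2, a zinc finger transcription factor (chr2:44966126-44967334), counts were 142, 147 and 202 and then 382, 379 and 335 (log2 fold-change 1.15 ± 0.15, SE). Rcbtb2 rose from 269, 286 and 426 to 704, 924 and 805 counts (log2 fold-change 1.30 ± 0.14, SE) and Fbxw2, which encodes an F-box protein, from 52.8, 89.8 and 88.5 to 172, 209 and 195 (1.30 ± 0.18). Gm17511 rose by 1.15 ± 0.17 on the log2 scale (SE). Among promoter-class falls, A630001G21Rik went from 168, 163 and 172 to 67.2, 69.7 and 64.8 counts and Hormad1, a gene of meiosis, from 158, 150 and 177 to 75.1, 67.1 and 57.9. Both had a narrow spread in each group, and their log2 fold-changes were -1.32 ± 0.19 and -1.28 ± 0.18 (SE). Fam162b had a log2 fold-change of -1.23 ± 0.15 (SE) over a broad peak of 9655 bp.

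Hoxc8, a homeobox gene, rested on 1 control library. Its counts were 136, 71.2 and 42.2 in unstimulated replicates 1, 2 and 3 and 34.7, 42.1 and 28.5 with (+)-JQ1 (log2 fold-change -1.23 ± 0.26, SE). Without unstimulated replicate 1 the log2 fold-change was -0.71 and the edgeR adjusted p was 0.105.

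To see whether the same loci changed in libraries that the comparison had not used, (+)-JQ1 under LPS was compared with LPS alone, which shares no library with the resting comparison. Over all tested peaks, 2.07% rose and 3.67% fell under LPS at an FDR under 0.05. Of the 529 peaks raised by (+)-JQ1 alone, 138 (26.1%) also rose under LPS, 1 fell, and 463 (87.5%) had the same sign. Of the 3483 lowered peaks, 195 (5.60%) also fell under LPS, 15 rose, and 2156 (61.9%) had the same sign. For peaks called under every scaling, 19 of 64 rises (29.7%) and 76 of 601 falls (12.6%) were also called with the same sign under LPS. The labels give 3 mice as the source of the cells in all groups.

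Of the 24 named peaks 15 were also called in the same direction under LPS, 8 of 12 rises and 7 of 12 falls, and 22 had the same sign. Near Hist1h4j the change was larger in size under LPS, from 26.8, 23.5 and 26.9 counts with LPS to 125, 124 and 171 with LPS + (+)-JQ1 (log2 fold-change 2.46 ± 0.22, SE, edgeR adjusted p = 1.38e-15). The difference between its 2 fold-changes was 0.69 on the log2 scale and did not pass the interaction test (edgeR adjusted p = 0.229). Beside 4930546C10Rik the rise was 1.56 ± 0.16, close to the 1.58 of resting cells (difference -0.02 ± 0.23, SE, on the log2 scale).

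At Gtf2ird2 counts fell from 440, 481 and 426 to 151, 102 and 109 under LPS, a log2 fold-change of -1.92 ± 0.15 (SE, edgeR adjusted p = 7.22e-19). Hormad1 fell by 1.09 and Fam162b by 1.13 on the log2 scale under LPS. The peaks at Clec4a2 fell by 0.95 and 0.88, and Igfbp4 by 0.86. Among rises, Acsl4 rose by 1.03, Rnf144a by 0.74, Cd14 by 0.72, Zeb2 by 0.62, Gm17511 by 0.51 and Rcbtb2 by 0.47.

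The peak beside Sepp1 had another course. LPS alone lowered it to 12.9, 11.3 and 16.8 counts, and it had 15.9, 24.6 and 18.2 with LPS + (+)-JQ1, a log2 fold-change of 0.54 ± 0.34 that did not pass the test (edgeR adjusted p = 0.431). The stronger peak next to it went from 29.3, 28.1 and 37.0 to 28.8, 75.9 and 56.1 under LPS (log2 fold-change 0.82 ± 0.24, SE, edgeR adjusted p = 0.0207), far below the 430 to 641 counts reached with (+)-JQ1 alone.

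**Figure D3:**
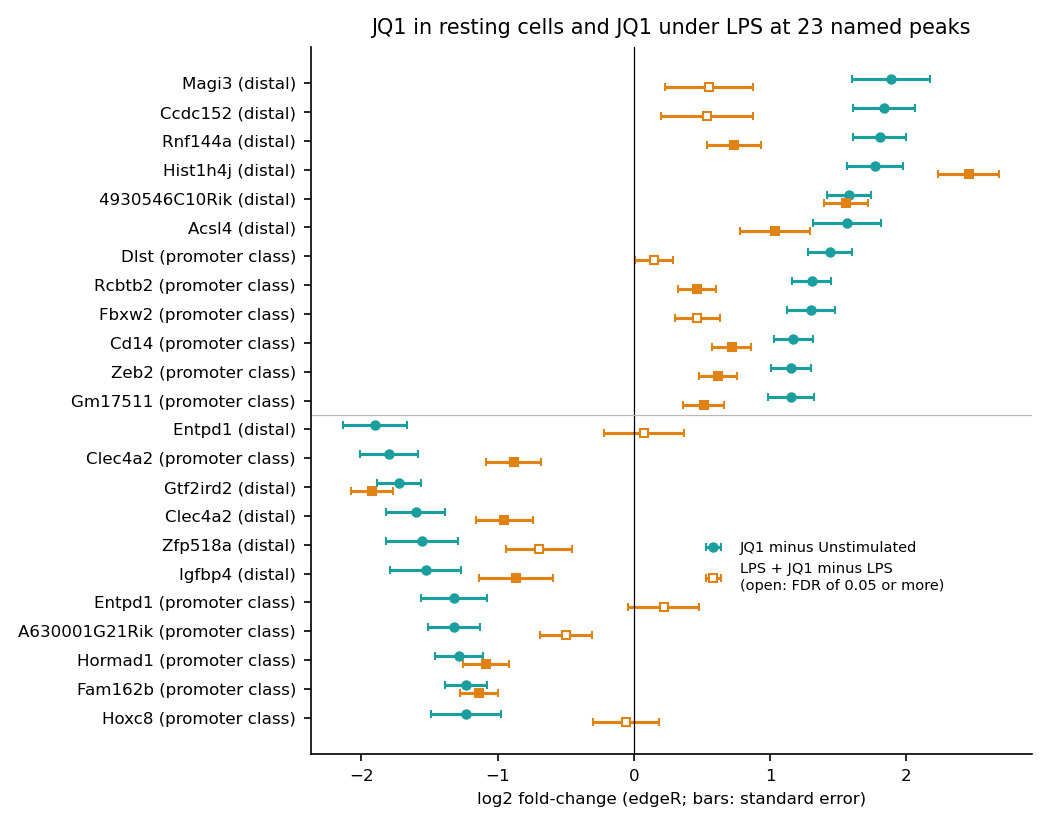
Points give the log2 fold-change of (+)-JQ1 against unstimulated BMDMs (teal circles) and of LPS + (+)-JQ1 against LPS (orange squares, open where the FDR was 0.05 or more) at 23 of the named peaks, with the standard error as bars. Filled squares lie on the same side of 0 as the circles at 14 peaks, while both Entpd1 peaks lie at -1.90 and -1.32 in resting cells and at 0.07 and 0.22 under LPS.

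Whether the effect of (+)-JQ1 differed between resting and LPS-stimulated BMDMs was tested by the interaction, which was called at 3.84% of all tested peaks. For the named peaks this test uses again the libraries that ranked them. The interaction passed at 7 of the 24. Both Entpd1 peaks were among these. The distal one had 19.0, 27.2 and 30.3 counts with LPS alone and 21.6, 37.9 and 20.4 with LPS + (+)-JQ1, an interaction of 1.97 ± 0.38 (SE, log2, edgeR adjusted p = 8.38e-04). At the promoter-class one the means were 38.6 and 44.5 counts, an interaction of 1.54 ± 0.36 (SE). Dlst had 269, 248 and 247 counts with LPS, overlapping the 243, 250 and 212 with (+)-JQ1 alone. It had 277, 320 and 252 with LPS + (+)-JQ1 (interaction -1.29 ± 0.22, SE, edgeR adjusted p = 8.69e-05). At Hoxc8 both groups with LPS were low, with means of 59.4 and 57.0 counts. The rises at Rnf144a, Rcbtb2 and Fbxw2 were smaller under LPS, with interactions of -1.07, -0.84 and -0.83 on the log2 scale.

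IL-10, given to the same cells in place of (+)-JQ1, served as a second treatment of resting BMDMs. The comparisons of (+)-JQ1 and of IL-10 with unstimulated cells share the 3 control libraries, so the values are set side by side and the treatments were compared directly, a test passed by 2.76% of all peaks. At the named peaks it uses again the (+)-JQ1 libraries that ranked them. In this direct comparison 19 of the 24 named peaks differed in the direction of the (+)-JQ1 change. With IL-10 alone 18 of the 24 had the same sign and 7 were called, among them the rises at Dlst (0.97), Zeb2 (0.52) and Rcbtb2 (0.50). These counts use again the control libraries that ranked the peaks, and the share of all tested peaks called with IL-10 is not given here. They therefore do not tell a shared effect of the treatments from the selection. Over the 3483 lowered peaks the median log2 fold-change was -0.86 with IL-10 and -1.32 with (+)-JQ1, and 5.31% differed between the treatments. For the 529 raised peaks the medians were 0.60 and 1.08, and 36.3% differed.

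Hormad1 and Fam162b had log2 fold-changes of 0.67 and 0.49 with IL-10 and of -1.28 and -1.23 with (+)-JQ1, and the promoter-class peak at Clec4a2 had 0.52 and -1.80. All 3 passed the test in both directions. The Entpd1 peaks were lowered by both treatments, with means of 63.3 and 42.3 counts at the distal peak with IL-10 and (+)-JQ1, and the treatments did not differ there by the test (difference -0.60 on the log2 scale, edgeR adjusted p = 0.20). For the 6 distal rises, including Magi3, Sepp1/Ccdc152 and Hist1h4j, the log2 fold-change with IL-10 lay at 0.05 to 0.47 and none passed the test against unstimulated cells, and all 6 were higher with (+)-JQ1 than with IL-10.

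Peaks called by over 1 under every scaling were then taken where they were called again, with the same sign, in the separate LPS libraries. There were 19 rises, all distal, of which 16 had a mean of at least 50 normalized counts, and 76 falls, 65 distal and 11 promoter-class, of which 23 had that mean. Among the rises was a peak 8.37 kb from the nearest TSS of Brd2, which encodes one of the BET proteins that (+)-JQ1 binds (chr17:34243128-34243982). Its counts were 41.5, 53.7 and 60.7 in unstimulated libraries and 152, 149 and 148 with (+)-JQ1 (log2 fold-change 1.51 ± 0.19, SE, edgeR adjusted p = 1.61e-08). Under LPS it went from 75.1, 83.5 and 110 to 226, 236 and 234 (log2 fold-change 1.39 ± 0.17, SE). Treated libraries were the higher ones in both comparisons, with no overlap.

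A peak 24.6 kb from the TSS of the chemokine gene Ccl6 (chr11:83429948-83432531) rose from 177, 259 and 249 to 555, 717 and 641 counts (log2 fold-change 1.47 ± 0.14, SE), and by 0.83 under LPS. In an intron of Ppp1r1c, counts rose from 161, 189 and 283 to 487, 559 and 494, by 1.27 in resting cells and 1.56 under LPS on the log2 scale. Near Hist1h4k the rises were 1.45 and 1.54. An intergenic peak near Gm17436 rose by 1.29 with (+)-JQ1 and by 2.32 with IL-10 on the log2 scale, so that it was lower with (+)-JQ1 than with IL-10 by 1.03 (edgeR adjusted p = 5.77e-06).

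Falls shared with LPS were found at 3 peaks in or near Fyb, which encodes an adaptor of immune-cell signalling and adhesion. The strongest, a broad peak of 8925 bp (chr15:6616137-6625062), went from 519, 562 and 661 to 246, 216 and 200 counts (log2 fold-change -1.40 ± 0.15, SE, edgeR adjusted p = 2.23e-11) and fell by 1.51 under LPS. The other 2 fell by 1.22 and 1.19 in resting cells and by 1.13 and 1.26 under LPS. A peak of 17834 bp over Ctss, the gene of the lysosomal protease cathepsin S, fell from 705, 675 and 713 to 261, 379 and 348 counts, by 1.09 in resting cells and 0.96 under LPS on the log2 scale. This peak (chr3:95342169-95360003) lies beside the lowered promoter-class peak named for Hormad1 (chr3:95360578-95363874), so the falls at Ctss and Hormad1 are not separate loci.

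Oas2 and Samd9l are interferon-induced genes, and peaks near both fell more under LPS than in resting cells. A distal peak of Oas2, a sensor of double-stranded RNA (chr5:121177733-121180168), went from 106, 80.5 and 65.9 to 38.1, 31.6 and 43.2 counts in resting cells (log2 fold-change -1.13 ± 0.21, SE). Under LPS it went from 432, 436 and 443 to 53.3, 64.6 and 62.6 (log2 fold-change -2.84 ± 0.16, SE). The Samd9l peak at chr6:3319084-3320985 fell by 1.35 and 2.35 on the log2 scale. LPS alone had brought the Samd9l peak to 451, 434 and 438 counts, against 90.8, 98.4 and 73.6 with LPS + (+)-JQ1. At both peaks the effect of (+)-JQ1 was larger in size under LPS, with interactions of -1.72 and -0.995 on the log2 scale (edgeR adjusted p = 2.69e-05 and 0.0266). A peak of Mitf, a transcription factor of the osteoclast and macrophage lineages, fell by 1.08 and 0.99, and one near Pim1, a kinase gene, by 1.09 and 0.60.

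Other windows of 100 kb held several lowered peaks. The most, 7 each, were found in the window of Dock8 and Kank1 (35 tested peaks, chr19:25200001-25300000) and in that of Tgfbr1, Alg2 and Sec61b (23 tested, chr4:47400001-47500000), of which 2 in each window fell by over 1 under every scaling. Tgfbr1 encodes a receptor of TGF-beta. Its strongest lowered peak lay 33.1 kb from the TSS (chr4:47430172-47434103) and went from 386, 435 and 555 to 246, 193 and 233 counts (log2 fold-change -1.03 ± 0.15, SE, edgeR adjusted p = 1.82e-07). Over the 6 scalings its log2 fold-change ranged from -1.30 to -0.95, so that it passed the threshold of 0.5 but not that of 1 under every scaling. All 7 peaks were also lowered by LPS alone, a comparison that shares the control libraries, and when (+)-JQ1 was added to LPS none of them fell and 1 rose by 0.77 on the log2 scale.

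The window of Igf1, the gene of insulin-like growth factor 1, held 6 lowered peaks of 37 (chr10:87300001-87400000), 2 of them under every scaling, with a median log2 fold-change of -0.58 over all its tested peaks. The strongest went from 123, 109 and 130 to 51.5, 50.0 and 62.8 counts (log2 fold-change -1.13 ± 0.23, SE). All 6 were lowered by LPS alone as well, a comparison that shares the control libraries that ranked them. None of the 6 was changed by (+)-JQ1 under LPS at an FDR below 0.05. Over all 3183 lowered distal peaks the median log2 fold-change with LPS alone was -0.84, against -0.07 over all distal peaks. Falls with LPS alone were thus not particular to the Igf1 and Tgfbr1 windows. The window of Akap13 and Klhl25 held 6 of 35, 4 of them under every scaling. All 6 were named for Akap13 or AC158749.1, and no peak named for Klhl25 was called. Dock10, a guanine nucleotide exchange factor gene, held 5 of 27, with 1 under every scaling. Of these 5 windows, 2 had lowered peaks that also fell under LPS, 1 peak beside Kank1 and 2 in Dock10. In all, 486 windows had 2 or more lowered peaks and 23 had 2 or more raised ones. Besides Sepp1 and the histone genes, 3 raised peaks of 15 lay at Fgfr1op and Rnaset2a on chromosome 17. Of their 32-base words, 20.7% occurred once in mm9 at the Rnaset2a peak and 13.2% at the intergenic Fgfr1op peak. At the intronic Fgfr1op peak 99.95% did. Some lowered peaks of the Tgfbr1 and Akap13 windows also had few such words, down to 41.98% at Tgfbr1 and 38.04% at AC158749.1 in the Akap13 window. The part of repeated sequence in these windows was not tested. A further 20 windows tied with 2 raised peaks, from which the order by position named those of Prdm1 and Lta4h.

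**Figure D4:**
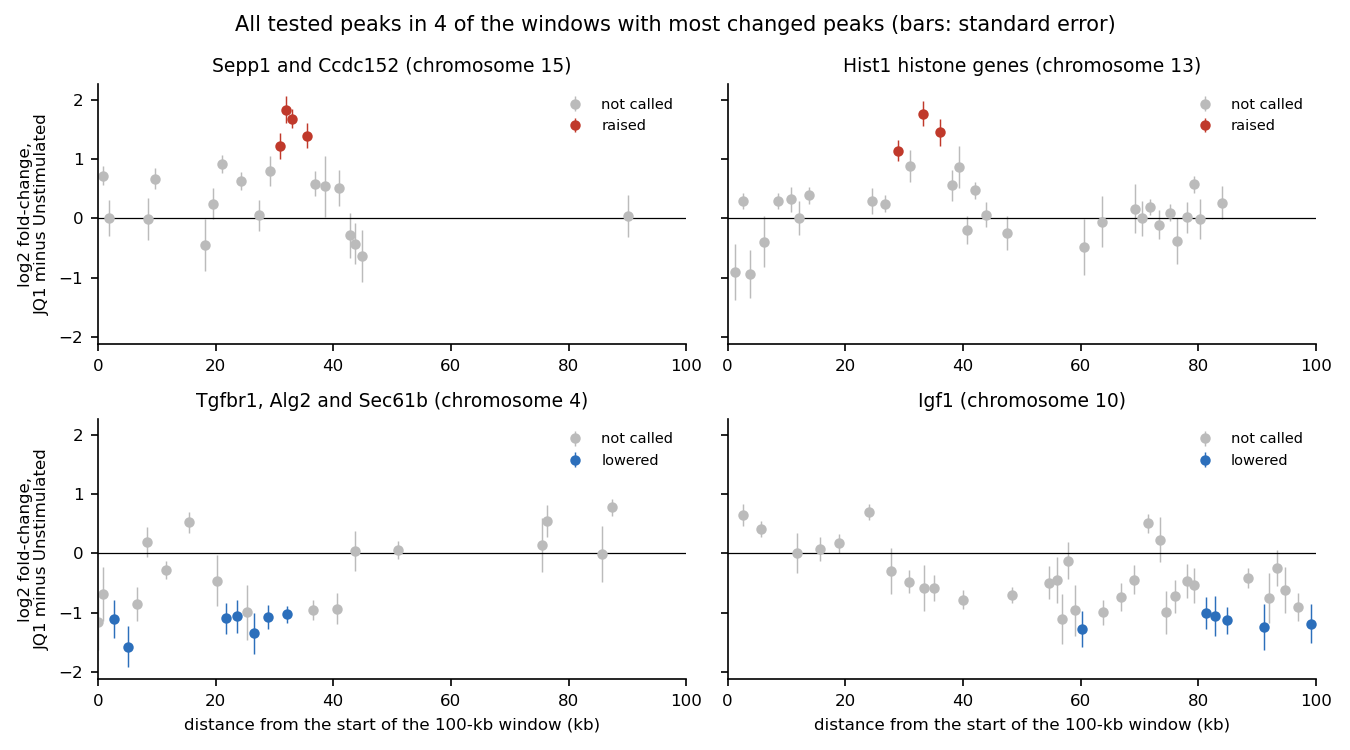
Points are the log2 fold-changes of (+)-JQ1 against unstimulated BMDMs, with the standard error, of all tested peaks in 4 of the 100-kb windows with most changed peaks, by distance in kb from the start of the window. Raised peaks (red) are grouped at Sepp1 and Ccdc152 (4 of 21) and among the Hist1 genes (3 of 32), and lowered peaks (blue) number 7 of 23 at Tgfbr1 and 6 of 37 at Igf1.

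The middle 500 bp of each tested peak was searched on both strands for 15 consensus motifs, and the shares are descriptions. A C/EBP match (TTGCNNAA) was present in 20.5% of all distal peaks, in 31.4% of the 376 raised ones and in 45.9% of the 61 raised under every scaling, against 18.8% of the 3183 lowered ones. Among distal peaks with a mean of at least 50 normalized counts it was in 34.1% of raised peaks, 21.2% of all and 16.1% of lowered peaks. Among the 24 named peaks, 7 of 12 rises and 1 of 12 falls (that near Zfp518a) held one. In promoter-class peaks raised by over 0.5 under every scaling the share was 26.6%, against 16.3% of all promoter-class peaks, whereas it was 14.4% in the 153 raised by over 1, which were mostly CpG-rich.

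AP-1 matches (TGANTCA) were in 26.6% of raised and 19.3% of all distal peaks, though in 19.7% of those raised under every scaling, and MAF matches (TGCTGAC) in 14.1% and 9.15%. In the larger set of 909 distal peaks raised by over 0.5 under every scaling, C/EBP was not set apart from these motifs. There C/EBP was in 31.2%, AP-1 in 28.9%, MAF in 14.4% and PU.1 in 10.7%. CTCF matches (CCA, any 2 bases, AG, any 2 bases, GGC), which mark insulators, were in 4.02% of lowered and 7.80% of all distal peaks. The kappaB motif (GGG, any 2 bases, TTTCC) was in 3.99% of raised, 2.23% of lowered and 2.36% of all distal peaks. RUNX matches (TGTGGT) were in 37.5%, 34.7% and 37.1%, IRF matches in 7.71%, 6.28% and 7.44%, and PU.1 matches in 9.31%, 5.09% and 6.98%. The E-box was in 6.76% and the ARE in 18.1% of all distal peaks. Among all promoter-class peaks, AP-1 was found in 12.7%, NRF1 in 0.436%, IRF in 6.10%, RUNX in 30.2%, ARE in 18.7%, PU.1 in 4.67% and MAF in 8.08%. In promoter-class peaks raised by over 0.5 under every scaling, AP-1 was in 19.6% and PU.1 in 9.55%. An ARE match can share bases with an AP-1 or a MAF match. Raised distal peaks were also less rich in GC than all distal peaks (median 43.1% and 45.6%), and the part of base composition in these shares was not tested.

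**Figure D5:**
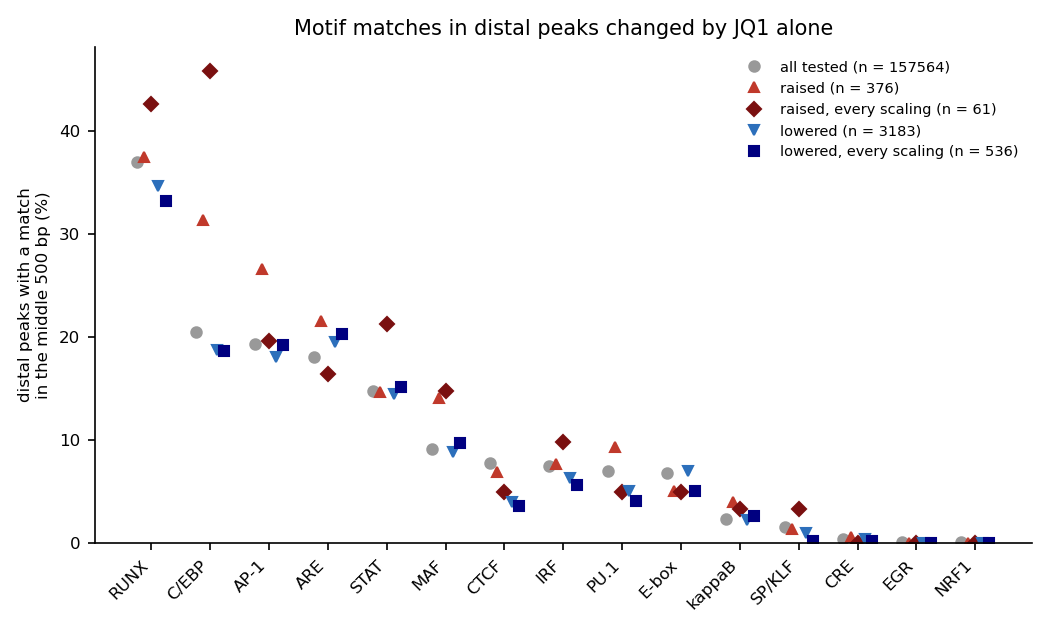
The share of distal peaks (%) whose middle 500 bp holds a match is given for 15 motifs in all tested peaks, raised and lowered peaks, and those raised or lowered under every scaling. For C/EBP the share was 20.5% of all distal peaks, 31.4% of raised ones and 45.9% of the 61 raised under every scaling.

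To place the changes among known programs, peaks within 25 kb of a TSS were counted for 19 gene lists where the FDR was below 0.05 and the change over 0.5 on the log2 scale. At this threshold 22.9% of all promoter peaks rose and 2.15% fell, and 4.34% of distal peaks rose and 3.39% fell. Under every scaling these shares were 0.543% and 0.693% of promoter and 0.577% and 0.789% of distal peaks. Medians over a list followed the scaling, since the median over all promoter peaks was 0.08 with TMM, -0.20 with total counts and -0.00 with loess offsets. Scaled by total counts, lowered distal peaks outnumbered raised ones in all 19 lists, as they did over all distal peaks (1419 raised and 22934 lowered). Counts of distal peaks under every scaling are therefore given for each list, raised before lowered, and no list was tested as a set. Few promoter peaks of the lists held under every scaling. They were 1 lowered peak of the BET inhibitor response markers, 2 lowered of the interferon-stimulated genes, 1 raised and 1 lowered of the pattern recognition receptors, 1 raised of the macrophage lineage list, 1 raised of the Fc and phagocytic receptors and 1 lowered of the lysosome list.

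For the BET proteins and P-TEFb (12 genes), 11 of 29 promoter peaks rose and 1 fell, and 6 of 112 distal peaks rose and none fell, while 2 distal rises held under every scaling, that near Brd2 among them. Hexim2, a relative of the P-TEFb inhibitor HEXIM1, had a promoter peak with 547, 659 and 791 counts without and 1271, 1501 and 1275 with (+)-JQ1 (log2 fold-change 1.02 ± 0.14, SE, edgeR adjusted p = 5.73e-08), called in 5 of 6 scalings. Hexim1 itself, whose transcript is a marker of BET inhibition, had promoter counts of 720, 991 and 1058 without and 1155, 1420 and 1453 with (+)-JQ1, without overlap. Its log2 fold-change was 0.54 ± 0.14 (SE, edgeR adjusted p = 0.00235) but -0.23 with loess offsets, and it passed in 3 of 6 scalings. Brdt, the testis member, had few counts (33.9, 7.23 and 21.6, then 3.36, 11.8 and 5.89).

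Among genes known to respond to BET inhibitors (9 genes), 3 of 10 promoter peaks rose and 1 fell, and 11 of 102 distal peaks rose and 7 fell, but under every scaling 1 distal peak rose and 3 fell. The largest falls were both in Il7r, the gene of the interleukin-7 receptor, where counts in the peak at chr15:9435675-9437116 went from 60.3, 65.0 and 43.2 to 15.7, 21.1 and 15.7 (log2 fold-change -1.69 ± 0.33, SE, edgeR adjusted p = 4.29e-05). A peak near Cd180, which encodes a regulator of TLR4, rose by 0.96. Under LPS the log2 fold-changes of these peaks were 0.08 and 0.09 and did not pass the test. The promoter of Myc had 313, 379 and 474 counts without and 500, 476 and 434 with (+)-JQ1. The groups overlapped and the difference did not pass the test (log2 fold-change 0.27 ± 0.14, SE, edgeR adjusted p = 0.22), and it was at -0.00 with total counts and -0.19 with loess offsets.

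Inflammatory cytokines and chemokines (23 genes) had 5 of 27 promoter peaks raised and 1 lowered, and 18 of 244 distal peaks raised and 14 lowered, with 4 and 4 under every scaling. A peak 9.07 kb from the TSS of Ccl3 rose from 253, 265 and 327 to 585, 593 and 586 counts (log2 fold-change 1.06 ± 0.14, SE, edgeR adjusted p = 3.64e-08), with treated libraries close together. A weak peak near Ccl5 fell from 11.3, 23.7 and 25.7 to 2.24, 3.95 and 5.89 counts (log2 fold-change -2.29 ± 0.53, SE). The promoter of Il12b, the shared subunit of IL-12 and IL-23, had 133, 136 and 157 counts without and 183, 170 and 143 with (+)-JQ1. These overlapped and did not pass the test (log2 fold-change 0.21 ± 0.16, SE, edgeR adjusted p = 0.454), with -0.07 under total counts and -0.03 under loess offsets. The Il10 promoter peak (log2 fold-change 0.18 ± 0.19, SE, edgeR adjusted p = 0.615, -0.09 with total counts and -0.03 without unstimulated replicate 1) does not check the genotype, as the deleted part of the gene was not examined here.

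Interferon-stimulated genes (20 genes) were the only list of the 19 in which lowered distal peaks outnumbered raised ones, 13 against 3 of 223. Under every scaling it had 7 against 1, but several other lists then also had more falls than rises. There were 6 rises and 3 falls among 40 promoter peaks. The median log2 fold-change of its distal peaks was -0.29, with -0.57 under total counts and -0.22 under loess offsets, against -0.12, -0.40 and -0.02 over all distal peaks. The promoter of Oas2 fell from 85.5, 53.7 and 53.5 to 17.9, 26.3 and 26.5 counts (log2 fold-change -1.43 ± 0.25, SE, edgeR adjusted p = 1.05e-05) and by 1.81 under LPS. Not all members followed. A peak near Rsad2, which encodes the antiviral protein viperin, rose by 0.86, and the promoter of Bst2, the gene of tetherin, by 0.80, although the latter held in 5 of 6 scalings.

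Pattern recognition receptors and adaptors (24 genes) had 20 of 43 promoter peaks raised and 1 lowered, and 32 of 282 distal peaks raised and 6 lowered. Under every scaling 1 and 1 promoter and 6 and 4 distal peaks were left. In an intron of Nlrp3, the inflammasome sensor, counts fell from 65.4, 69.2 and 89.6 to 48.2, 15.8 and 47.1 (log2 fold-change -0.98 ± 0.23, SE) and by 1.51 under LPS. NF-kB subunits and inhibitors (13 genes) had 13 of 32 promoter peaks raised and none lowered, none of these under every scaling, and 11 of 189 distal peaks raised and 9 lowered, with 1 and 2 under every scaling. A peak 22.1 kb from the TSS of Nfkbia fell by 1.46 from 33.9, 31.0 and 31.9 counts. AP-1 and immediate early factors (18 genes) had 8 of 22 promoter peaks raised and none lowered, and 18 of 236 distal peaks raised and 6 lowered, with 2 and 1 under every scaling. A peak near Ier3 rose from 26.4, 28.9 and 34.0 to 71.7, 71.0 and 78.6 counts (log2 fold-change 1.30 ± 0.23, SE), while its log2 fold-change under LPS was -0.14 and did not pass the test.

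Macrophage lineage regulators and markers (20 genes) had 16 of 37 promoter peaks raised and 1 lowered, and 38 of 324 distal peaks raised and 15 lowered, with 7 and 5 of these distal ones under every scaling. Both rises of Lyz2, the lysozyme gene, lay 5.15 and 7.01 kb from its TSS, and the nearer went from 117, 126 and 228 to 300, 346 and 372 counts (log2 fold-change 1.11 ± 0.19, SE, edgeR adjusted p = 3.36e-06) and rose by 0.70 under LPS. Peaks near Itgam and in Runx1 fell by 1.19 and 1.22, the latter in 4 of 6 scalings. Fc and phagocytic receptors (18 genes) had 8 of 30 promoter peaks raised and none lowered, and 28 of 251 distal peaks raised and 7 lowered. This balance turned round with the scaling, to 4 raised and 26 lowered with total counts and to none raised and 4 lowered under every scaling. In Stab1, a scavenger receptor gene, an intronic peak rose by 0.91 in resting cells, in 5 of 6 scalings, and by 1.04 under LPS. Antigen presentation and costimulation (17 genes) had 6 of 32 promoter peaks raised and 1 lowered, and 8 of 178 distal peaks raised and 4 lowered, with none and 1 under every scaling. Within 25 kb of the Cd40 TSS peaks moved both ways, from -2.06 to 0.93 on the log2 scale.

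Lysosome and autophagy genes (23 genes) had 15 of 52 promoter peaks raised and 1 lowered, and 30 of 235 distal peaks raised and 6 lowered, with 3 rises and 4 falls of distal peaks under every scaling. A peak 19.9 kb from the TSS of Atp6v0d2, a subunit of the lysosomal proton pump, rose from 95.5, 102 and 172 to 272, 275 and 281 counts (log2 fold-change 1.15 ± 0.19, SE) and by 0.94 under LPS. Lipid and cholesterol metabolism (18 genes) had 10 of 35 promoter peaks raised and 1 lowered, and 22 of 205 distal peaks raised and 7 lowered, with 4 and 3 under every scaling. In an intron of Abca1, the cholesterol exporter, counts rose from 136, 148 and 215 to 351, 388 and 438 (log2 fold-change 1.23 ± 0.15, SE, edgeR adjusted p = 4.89e-09), and in Pparg, a lipid-sensing nuclear receptor, from 177, 267 and 336 to 512, 534 and 519 (log2 fold-change 1.00 ± 0.14, SE). Both also rose under LPS, by 0.56 and 0.64.

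NRF2 targets and iron handling (16 genes) had 12 of 20 promoter peaks raised and none lowered, none of them under every scaling, and 24 of 168 distal peaks raised and 3 lowered, with 3 and 2 under every scaling. A peak in Mcm5, 19.6 kb from the TSS of Hmox1, fell by 1.45, from 64.1, 34.1 and 22.6 to 14.6, 9.21 and 18.7 counts. In the Myc and cell cycle list (24 genes), 14 of 42 promoter peaks rose and 1 fell, and 14 of 216 distal peaks rose and 11 fell. Under every scaling no promoter peak was left, and 2 distal peaks rose and 4 fell. Counts near Cdkn1a, which encodes the cell cycle inhibitor p21, rose from 133, 153 and 183 to 301, 282 and 320 (log2 fold-change 0.94 ± 0.15, SE), with -0.07 under LPS, which did not pass the test. Signalling feedback and mRNA decay genes (16 genes) had 11 of 25 promoter peaks raised and none lowered, and 16 of 239 distal peaks raised and 10 lowered, with 1 and 6 of these distal ones under every scaling.

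Alternative activation genes (15 genes) had 6 of 22 promoter peaks raised and 1 lowered, and 12 of 185 distal peaks raised and 4 lowered, with none and 1 under every scaling. A weak peak in Chi3l3, a chitinase-like gene, fell from 26.4, 29.9 and 16.5 to 8.96, 2.63 and 3.93 counts. Proteases and matrix genes (22 genes) had 7 of 42 promoter peaks raised and none lowered, and 16 of 227 distal peaks raised and 9 lowered, with 3 and 3 under every scaling. Both named rises near Mmp12, a macrophage elastase gene, had log2 fold-changes of 0.89 and 0.88 in resting cells and 0.51 and 0.59 under LPS. Replication-dependent histones (70 genes) had 9 of 37 promoter peaks raised and none lowered, and 9 of 134 distal peaks raised and 3 lowered, with 3 rises and 1 fall of distal peaks under every scaling. Ribosomal protein genes (76 genes), strong housekeeping promoters, had 44 of 140 promoter peaks raised and 1 lowered, none of either under every scaling, and 13 of 570 distal peaks raised and 11 lowered, with 1 and 3 of these under every scaling.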

How the data were processed

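ATAC-seq libraries of 3 groups of treated BMDMs and their controls were taken from a table of 18 libraries in 6 groups, 3 per group, grouped by their labels. Per the methods and the file headers, the authors trimmed and aligned reads to mm9 with PEPATAC (version 0.9.0) and bowtie2, called peaks per library with MACS2, merged them and deposited raw read counts per peak, split into promoter and distal peaks with ChIPseeker. The counting tool and any shift for transposase cutting are not given in the sources used here. Another 6 columns matched no sample and were not used. The median peak was 956 bp wide. Totals of 12020526 to 25908198 counts per library limit the precision of weak peaks.

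The deposited counts were tested with edgeR 4.0.16 (R 4.3.3) in a quasi-likelihood fit over all 18 libraries with TMM and filterByExpr, which kept 194230 of 194284 peaks. P-values were adjusted over all of them by the Benjamini-Hochberg method. Peaks were named by mm9 and the GENCODE vM1 annotation, and all 21 chromosomes matched. Named peaks were the 6 largest rises and falls per class (FDR below 0.05, mean of at least 50 normalized counts, same direction in all 3 pairs of equal replicate number, at most 1 per 50 kb), up to 2 rises and 2 falls per gene list, the promoters of Hexim1, Myc, Il12b and Il10, and the 5 windows of 100 kb with most raised and most lowered peaks. Peaks called under every scaling and again under LPS, and the counts under all 6 scalings, were chosen after seeing the data. Members and lists were chosen with earlier results of these data known. Alternatives were DESeq2 1.42.0, other scalings (loess with a span of 0.3, 20 GC bins), filters and thresholds, the replicate block, the sequencing lane, the 2 groups alone, and leaving out each library. On simulated counts with a log2 fold-change of 1.5 the fit recovered 168 of 200 changed peaks and called 2 unchanged ones of 194230 simulated. These numbers hold for the simulated counts only, and the share of false calls in the measured libraries was not tested. Results for some named items are not reported here.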

Additional observations from a re-analysis of the deposited data

Results flagged for a closer look

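At 7 named peaks the effect of (+)-JQ1 differed between resting and LPS-stimulated BMDMs by the interaction term of the edgeR fit, given here on the log2 scale as the effect under LPS minus that in resting cells. The peaks were ranked with some of the same libraries. Rises were smaller under LPS at Dlst (-1.29), Rnf144a (-1.07), Rcbtb2 (-0.84) and Fbxw2 (-0.83). Falls of resting cells were not called under LPS at the distal peak of Entpd1 (1.97), its promoter-class peak (1.54) and Hoxc8 (1.17), the last of which rests on unstimulated replicate 1. The log2 fold-changes of (+)-JQ1 under LPS were 0.07, 0.22 and -0.06 at these peaks. With LPS alone the Entpd1 peaks were already low, with means of 25.5 and 38.6 counts.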

How the results depend on the processing

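Counts of changed peaks moved with the scaling, the thresholds and the libraries included, and little with the replicate block, and the cause was not tested. In the order promoter raised, promoter lowered, distal raised and distal lowered, TMM gave 153, 300, 376 and 3183 peaks. Total counts gave 4, 1330, 63 and 12407, loess offsets 53, 125, 573 and 651, and scaling promoter and distal peaks apart 4, 1629, 705 and 1652. Size factors gave 265 raised promoter peaks, and GC bins gave 460 lowered promoter and 627 raised distal peaks. All 6 scalings together left 3, 65, 61 and 536. A minimum of 10 counts in every library, which tests fewer peaks, left 14, 186, 121 and 1226, and a threshold of 0.5 gave 8407, 789, 6840 and 5336. DESeq2 called 265 raised promoter, 195 lowered promoter and 2023 lowered distal peaks. Tested against a log2 fold-change of 0.5 (glmTreat), 17 lowered promoter, 150 raised distal and 78 lowered distal peaks were left, and an FDR of 0.01 left 118 lowered promoter and 1015 lowered distal peaks.

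With 1 library left out, the counts ranged from 36 to 1710, from 135 to 518, from 294 to 1454 and from 1352 to 5665. The extremes were those without unstimulated replicates 1 and 3. Without (+)-JQ1 replicate 1, 2 or 3, 371, 55 and 257 promoter peaks rose, and without unstimulated replicate 2, 2108 distal peaks fell. Interactions numbered 7463, 2724 with loess offsets, and 2466 to 17071 with 1 library left out (3887 without unstimulated replicate 1, 2933 without (+)-JQ1 replicate 2). The 138 rises also called under LPS numbered 21 with total counts and 84 to 644 with 1 library left out. The 195 such falls numbered 123 with DESeq2, 758 with total counts and 122 to 334 with 1 library left out. The distal to promoter difference was -0.37, -0.45 to -0.31 with 1 library left out, and -0.20 as a difference of median log2 fold-changes.

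The labels do not say that a replicate number marks 1 mouse. Once group means were removed, unstimulated and (+)-JQ1 libraries of the same number barely correlated (0.046, -0.005 and 0.005), and not every library correlated best with its own number. The replicate block gave 148, 297, 390 and 3104 peaks and changed no count by over 1.5 times. Of the values of the 28 named peaks under the alternatives, 327 kept their direction and call. The log2 fold-change turned to -0.23 at Hexim1 with loess offsets, to -0.0034 and -0.19 at Myc and to -0.069 and -0.027 at Il12b with total counts and loess offsets, and to -0.087 with total counts at Il10, which ranged from -0.032 to 0.38 with 1 library left out. Hoxc8 lost its call without unstimulated replicate 1 (-0.71), and Myc gained one without unstimulated replicate 3 (0.43).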
